A study of Mus musculus with 80 samples.

Results

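Gene expression around the arteries of the tibialis anterior, a mainly fast muscle of the lower leg, was compared between mice with P301L tau and control mice. The 20 regions carrying the tissue region label surrounding artery, of 80 regions in all, were taken: 10 from 6 tau animals and 10 from 6 control animals. Tau animals carried the treatment label tauopathy. All animals had the genotype label WT and the strain label C57Bl/6, and the labels give no age. The design text calls the mice P301L tau expressing and names age-matched and sex-matched controls. Tau binds microtubules, and its P301L form is known from inherited frontotemporal dementia in humans. The name of the deposited data contains AAV8, a viral vector, so tau and its delivery cannot be told apart here, and what the controls received is not stated. The labels give 4 female and 2 male tau animals and 3 female and 3 male control animals, whereas the design text gives 3 of each sex in each treatment. Among tau animals 3 gave 1 region, 2 gave 2 and 1 gave 3, and among control animals 2 gave 1 region and 4 gave 2.

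The regions were measured with the GeoMx mouse whole transcriptome atlas, which uses ultraviolet light to free barcoded probes from an outlined area of a tissue section, so that they can be counted. The values were normalised to the third quartile of each region. Levels below are log2 of the normalised value plus 1, averaged over the artery regions of an animal. All differences are tau minus control with the slide as a covariate, and their errors are standard errors (SE) over 6 and 6 animals. There were 3 slides, each with 2 tau and 2 control animals.

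An artery wall holds an inner lining of endothelial cells, a middle coat of contractile smooth muscle and an outer coat of fibroblasts and matrix. In skeletal muscle the larger arteries run between bundles of fibres, often beside nerve branches and the junctions where motor axons meet the fibres. The label cell type reads Myofibers for these regions, and within the 12 animals the fibre genes Acta1, Ckm and Myh4 had mean differences between artery regions and normal fibres of 0.04, -0.01 and -0.06 on the log2 scale. Other myosins were less even: Myh1 differed by 1.06 ± 1.11 (SD), with 10 of 12 animals higher around arteries, Myh2 by 0.94 ± 2.23 with 9 of 12, and the slow myosin Myh7 by -0.12 with 3 of 12. Among artery wall markers, Acta2, the actin of smooth muscle, was higher around arteries than in normal fibres in 12 of 12 animals, by 1.14 ± 0.81 (SD) on the log2 scale. Myh11, the smooth muscle myosin, was higher in 10 of 12 animals by 0.43 ± 0.50, and Tagln, an actin-binding protein of the same cells, in 10 of 12 by 0.30 ± 0.38. Markers of the outer coat were mixed. Dcn, a matrix proteoglycan of fibroblasts, differed by 0.46 ± 0.42 (10 of 12 animals above 0) and Pi16 by 0.19 ± 0.31 (10 of 12). Lum differed by 0.01 ± 0.28 (8 of 12) and Pdgfra by -0.09 ± 0.24 (5 of 12). Endothelial genes were mixed, with Cdh5 at 0.14 ± 0.24 (10 of 12 animals above 0), Kdr at 0.17 ± 0.28 (9 of 12), Pecam1 at -0.11 ± 0.27 (3 of 12), and Vwf and Tie1 at 0.03 and -0.01 (5 of 12 each). The regions held fibre RNA as well as higher levels of smooth muscle markers. In such mixed areas fewer cells of a type and less RNA per cell cannot be told apart.

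The tau regions were more deeply sampled than the control regions. Total counts ran from 822499 to 3220998 per tau region and from 475108 to 1973659 per control region. Over animals the log2 total count differed by 0.69 (exact permutation test within slides, two-sided, 216 assignments, p = 0.00926). Slides 1, 2 and 3 gave 0.71, 0.41 and 0.95. The negative probe, which matches no gene and so reads the background, had a median of 37.6 in tau animals and 29.6 in control animals. Its log2 difference was 0.22 (exact permutation p = 0.0926), and 0.23, 0.07 and 0.35 on the 3 slides. The part of depth and background in the gene differences below was not tested; with the total count as a further covariate the difference of 21 of the 84 tested genes named here had the other sign, and 16 more kept their sign at under 0.5 of the size. Because the total count itself differed between the groups on each slide, that covariate and the treatment cannot be fully told apart.

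No gene passed the test around arteries. Limma called 0 of 10188 genes higher (0%) and 0 lower (0%) in tau animals at an adjusted p under 0.05, and the lowest adjusted p was 0.124. At an unadjusted p under 0.05 there were 1005 genes with a higher level in tau animals, 9.86% of those tested, and 238 with a lower level, 2.34%. EdgeR on the recovered counts also called 0, with 432 genes higher at an unadjusted p under 0.05 and 486 lower. Quantile scaling gave 648 higher and 430 lower, and subtracting the negative probe 377 and 578, so the split between higher and lower genes depends on the scaling. Single regions were also fitted with the animal as a random effect, through 1 correlation between regions of an animal (0.224) shared by all genes. Limma then called 54 genes higher and 8 lower, among them Taf13, Cdkn1a and Myl1 (higher) and Mylk4 and Chd4 (lower). That fit counts 20 regions, although treatment varies only between the 12 animals. Of the 62 symbols called, 45 lie in the alphabetical stretch from Pr to Sl described below. Both tau animals lay above both control animals on all 3 slides for 279 genes (2.74%) and below them for 57 (0.559%). The median difference of all genes was 0.07, with 0.07, 0.03 and 0.10 on slides 1, 2 and 3, so gene values are to be read against that shift. For a typical gene the 95% interval extended 0.265 above and below the difference.

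Taf13 encodes a subunit of TFIID, the complex that places RNA polymerase II at promoters. It lies on chromosome 3 (108571699 to 108582068, mm10). The lowest, median and highest levels were 5.86, 6.13 and 6.22 in tau animals and 5.27, 5.58 and 5.76 in control animals. The groups did not overlap. In single regions the normalised value was 54.7 to 80.7 in tau and 36.0 to 54.4 in control muscle, and all 10 tau regions lay above all 10 control regions, the nearest pair by less than 1 unit. Regions of the same animal are not independent. Taf13, Cdkn1a, Ipo8 and Etv5 were chosen with earlier results of these data known, so their separation is not independent of that choice. On every slide both tau animals lay above both controls, as they did for 279 of 10188 genes (2.74%). Groups that do not overlap at all, by animal or by region, meet this on every slide. At most 279 genes (2.74%) can therefore separate fully in this direction, and the exact share is not given here. The 6 animals with exactly 2 regions had a median gap of 0.0959 on the log2 scale between their regions. The level averaged 6.10 ± 0.14 in tau animals and 5.56 ± 0.17 in control animals (SD, n = 6 each). The difference of 0.54 ± 0.110, a 1.45-fold level, did not pass the test (limma, adjusted p = 0.124). It was 0.54, 0.29 and 0.78 on slides 1, 2 and 3.

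Cdkn1a, on chromosome 17 (29090979 to 29100722), encodes p21, an inhibitor of cyclin-dependent kinases and a target of p53. Its levels were 5.54, 5.73 and 6.17 (lowest, median and highest) in tau animals and 4.95, 5.24 and 5.49 in control animals. The lowest tau animal lay just above the highest control. The difference was 0.57 ± 0.123 (adjusted p = 0.124, limma), and 0.51, 0.55 and 0.64 by slide. Ipo8, on chromosome 6 (148770683 to 148832931), encodes importin 8, which carries proteins into the nucleus. Its levels were 5.40, 5.61 and 5.87 in tau animals and 4.92, 5.01 and 5.36 in control animals. The groups again did not overlap, which at most 279 of 10188 genes (2.74%) can show in this direction. The difference was 0.54 ± 0.126 (limma, adjusted p = 0.124), with 0.64, 0.41 and 0.57 by slide.

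Etv5, on chromosome 16 (22381313 to 22439570), encodes an ETS transcription factor that in mice is needed for gene activity in the nuclei under the neuromuscular junction. Its levels were 5.11, 5.36 and 5.70 in tau animals and 4.25, 4.73 and 5.18 in control animals. The ranges overlapped between slides, whereas on each slide both tau animals lay above both controls. The difference was 0.67 ± 0.160 (adjusted p = 0.124, limma), with 1.03, 0.39 and 0.60 by slide. The mean level of Etv5 was at the negative probe value, -0.03 from it on the log2 scale, and 2 regions of an animal differed by up to 2.00. Taf13, Cdkn1a and Ipo8 stood 0.77, 0.47 and 0.29 above the negative probe. With the total count as a further covariate the differences were 0.33 for Taf13, 0.33 for Cdkn1a, 0.43 for Ipo8 and 0.11 for Etv5.

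**Figure D1:**
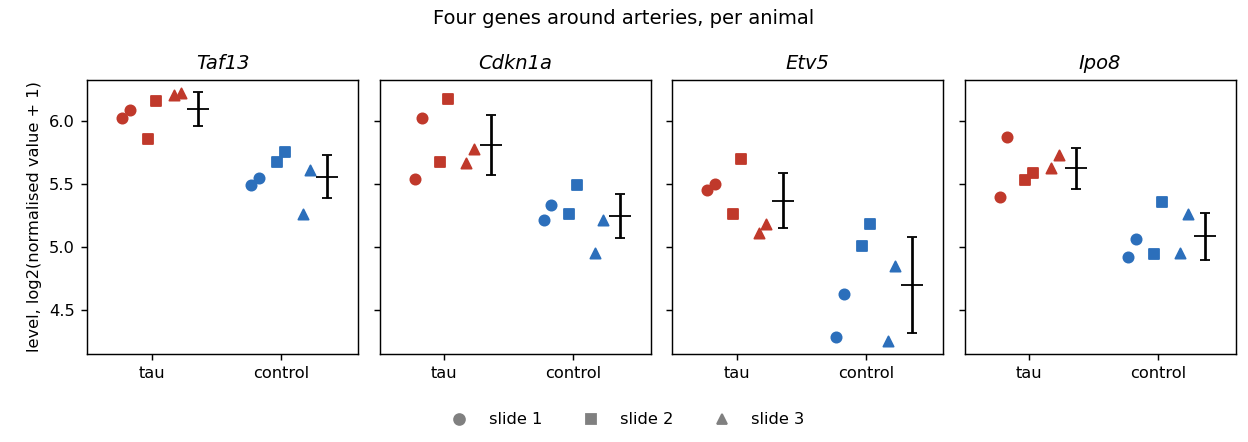
Level of Taf13, Cdkn1a, Etv5 and Ipo8 around arteries (vertical axis, log2 of the normalised value plus 1) in each of 6 tau and 6 control animals. Marker shapes give the slide, and black marks with bars give the mean and SD. Tau animals average 6.10 for Taf13 and control animals 5.56, and both tau animals lie above both controls on every slide for all 4 genes.

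Differences of the 4 genes in the other region types of the same animals were compared next, and the difference between region types was tested within animals. Taf13 differed by 0.36 in normal fibres, 0.49 in nerve bundle and 0.36 in fibres with central nuclei. Cdkn1a differed by 0.36, 0.49 and 0.31 in those regions, and Ipo8 by 0.24, 0.36 and -0.11. Etv5 differed by 0.02, 0.49 and 0.16. When the tau difference around arteries was compared with that in normal fibres within animals, limma called 0 of 10188 genes (0%; lowest adjusted p = 0.172), with 548 at an unadjusted p under 0.05. Against nerve bundle it also called 0 (0%; lowest adjusted p = 0.959), with 294 at an unadjusted p under 0.05. The smallest p against normal fibres belonged to Myl2, the slow fibre regulatory light chain, which differed by -0.06 ± 0.20 around arteries and by 0.72 in normal fibres. Around arteries Myl2 stood 0.21 above the negative probe, and its value was 233 in region T20_SA2 of a tau animal and at most 58.7 in any other region. Tmem19, a membrane protein gene, differed by -0.11 ± 0.13 around arteries and by 0.67 in normal fibres. Ddit4l, an inhibitor of mTOR signalling, differed by 0.57 ± 0.14 around arteries and by -0.07 in normal fibres. With the total count as a covariate Myl2, Tmem19 and Ddit4l were at -0.82, 0.028 and 0.22 around arteries. Against nerve bundle the smallest p belonged to Zkscan5, Mtfp1 and Rcn3, which differed around arteries by -0.05, 0.17 and -0.10 and in nerve bundle by 0.53, -0.46 and 0.43. Zkscan5, Mtfp1 and Rcn3 were at 0.18, 0.10 and -0.38 around arteries when the total count was a covariate. None of these 6 passed.

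The 12 genes with the smallest p around arteries all had positive differences, and none passed. Myl1, the essential light chain of fast fibre myosin, was the most abundant. Its levels were 10.58, 11.16 and 11.55 in tau animals and 9.71, 10.47 and 10.76 in control animals, and the difference of 0.75 ± 0.154 (adjusted p = 0.124) was 0.59, 0.71 and 0.94 by slide. In normal fibres, nerve bundle and central nuclei Myl1 differed by 0.46, 0.80 and 0.51. Ybx3, a cold-shock domain protein that binds RNA, differed by 0.52 ± 0.108, and Cenpb, which binds centromeric repeats, by 0.53 ± 0.112. The other 9 were Siah1a, a ubiquitin ligase (0.60 ± 0.116), Samsn1, a signalling adaptor of blood cells (0.56 ± 0.111), Serf2 (0.52 ± 0.103), Samd1 (0.72 ± 0.143), Sft2d3 (0.59 ± 0.120), Prl2b1, a gene of the prolactin family (0.62 ± 0.128), Rsrp1 (0.54 ± 0.111), Prss53, a serine protease (0.55 ± 0.116), and Taf13. Serf2 was at 0.13, Samd1 at 0.28 and Prl2b1 at 0.24 when the total count was a covariate.

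Genes with symbols from Pr to Sl in alphabetical order held 8 of these 12, a pattern noticed after the values were seen. Of 1953 tested genes in that stretch, 410 (21.0%) had a higher level in tau animals at an unadjusted p under 0.05, against 595 of the other 8235 (7.23%). The share was 41.1% of 56 genes that begin with Sa and 39.7% of 131 that begin with Rp, but the excess was not even: it was 4.73% of 169 that begin with Ra and 3.52% of 142 that begin with Se, under the 9.86% of all genes. It was highest in smaller groups, with 64.7% of 17 genes for Ro, 65.2% of 23 for Rs and 68.2% of 22 for S1. Rf (22 genes) and Sd (23 genes) had 0%. Beside the stretch, Pp had 12.3% of 122 and Sm 8.82% of 68. The median difference was 0.12 in the stretch and 0.05 outside it. Genes of a family often share the first letters of their symbols, and alphabetical order was not separated from gene family by a test. The part of either in the values of Siah1a, Samsn1, Serf2, Samd1, Sft2d3, Prl2b1, Rsrp1, Prss53 and other genes of the stretch was not tested. Taf13, Cdkn1a, Etv5, Ipo8, Myl1, Ybx3 and Cenpb lie outside it. Without the stretch limma called 0 of 8235 genes, and 601 had a higher and 190 a lower level at an unadjusted p under 0.05.

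**Figure D2:**
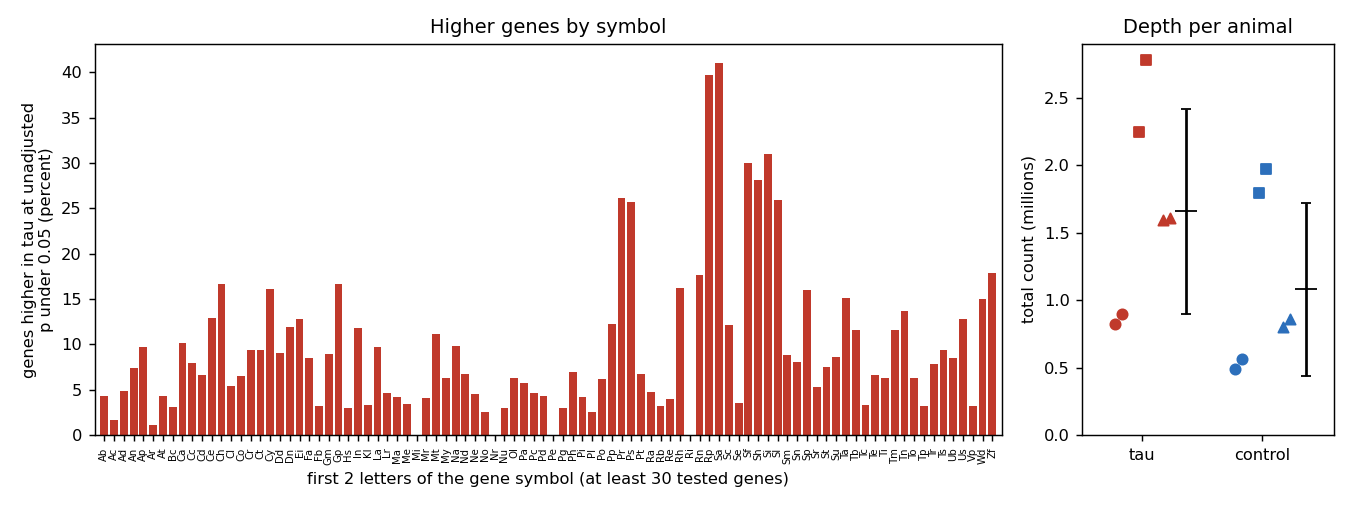
Left, percent of tested genes with a higher level in tau animals at an unadjusted p under 0.05 (vertical axis) by the first 2 letters of the symbol (horizontal axis, letters with at least 30 tested genes); Sa reaches 41.1% and Rp 39.7%, against 9.86% of all genes. Right, total count per artery region (vertical axis), averaged on the log scale over the regions of each of 6 tau and 6 control animals, with shapes for slides 1 (circles), 2 (squares) and 3 (triangles) and bars for the mean and SD; on each slide both tau animals lie above both controls.

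Among genes with a lower level in tau animals, those with the smallest p are given here after their values were seen. Mylk4, a kinase of muscle, had levels of 8.48, 9.40 and 10.71 in tau animals and 9.30, 10.67 and 10.84 in control animals. Its ranges overlapped across slides, and both tau animals lay below both controls on each slide. The difference was -0.77 ± 0.19 (adjusted p = 0.124), with -0.34, -0.62 and -1.36 by slide, and it was -1.08, -0.61 and -0.999 in normal fibres, nerve bundle and central nuclei. With the total count as a further covariate it was 0.29. Asb15, a muscle gene of the ankyrin repeat and SOCS box family, differed by -0.55 ± 0.118. Chd4, a chromatin remodelling enzyme of the NuRD complex, differed by -0.42 ± 0.0934, and Acvr1b, an activin receptor, by -0.45 ± 0.102. Hnrnpk, an RNA-binding protein, differed by -0.46 ± 0.105. Asb15 was at -0.14 and Acvr1b at -0.077 when the total count was a covariate.

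Net1, a guanine nucleotide exchange factor, differed by -0.47 ± 0.117 around arteries and by 0.00, 0.19 and -0.34 in normal fibres, nerve bundle and central nuclei. App, the amyloid precursor protein gene, had levels of 5.74, 6.95 and 7.37 in tau animals and 6.59, 7.44 and 8.23 in control animals. Its difference was -0.57 ± 0.147 (adjusted p = 0.126), with -0.58, -0.60 and -0.53 by slide. In normal fibres, nerve bundle and central nuclei App differed by 0.04, -0.00 and -0.51. Abundant genes had a median of the opposite sign. The 500 genes with the highest levels had a median difference of -0.08, whereas the 6661 genes under 2 times the negative probe had 0.09 and the other 3527 genes 0.00.

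Neuromuscular junction genes had the highest median difference after neutrophil and mast cell markers, among lists with at least 5 tested genes. At the junction acetylcholine from the motor axon opens a receptor built from alpha, beta, delta and epsilon subunits in adult muscle. The receptor is clustered by agrin acting through Lrp4 and the kinase Musk, with Dok7 and Rapsn inside the fibre. ETS factors, Etv5 among them, act on the genes of junctional nuclei in mice. Of 14 tested genes of the list, 13 had a difference above 0 and 1 below, against 6652 of 10188 genes above 0. The list median was 0.27, against 0.07 for all genes, and 0.23, 0.25 and 0.31 on slides 1, 2 and 3. None passed the test, and 6 of 14 had a higher level in tau animals at an unadjusted p under 0.05, where the background is 9.86%. The list was written with earlier results of these data known, and it holds Etv5.

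Chrna1, the alpha subunit, had levels of 4.80, 5.66 and 6.25 in tau animals and 4.58, 5.10 and 5.78 in control animals. Its difference was 0.51 ± 0.180 (adjusted p = 0.260, limma). Chrne, the epsilon subunit of adult muscle, had levels of 5.26, 5.83 and 6.22 in tau animals and 5.03, 5.30 and 6.15 in control animals, with a difference of 0.40 ± 0.170. The groups overlapped in both genes. Chrnb1, the beta subunit, differed by 0.28 ± 0.119, and Chrnd, the delta subunit, by 0.25 ± 0.130. All 4 subunits stood less than 1 log2 unit above the negative probe, at 0.33, 0.56, 0.72 and 0.19.

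Utrn encodes utrophin, which links the junctional membrane to the cytoskeleton. Its levels were 5.36, 5.51 and 6.00 in tau animals and 4.81, 5.26 and 5.51 in control animals. The difference of 0.40 ± 0.137 was 0.70 on slide 1, 0.05 on slide 2 and 0.43 on slide 3. Prkar1a, a regulatory subunit of protein kinase A, was the list's most abundant gene. Its levels were 7.67, 7.84 and 8.23 in tau animals and 7.18, 7.45 and 7.65 in control animals. There was no overlap, which at most 279 of 10188 genes (2.74%) can show in this direction. Prkar1a differed by 0.45 ± 0.111 (limma, adjusted p = 0.124). Its symbol lies in the stretch from Pr to Sl. Ache, which splits acetylcholine, and Colq, which anchors it, differed by 0.41 ± 0.230 and 0.19 ± 0.118. The clustering genes were nearer to 0, with Musk at 0.17, Dok7 at 0.15, Lrp4 at 0.14 and Rapsn at 0.02, and Syne1, a nuclear envelope gene, at -0.04.

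**Figure D3:**
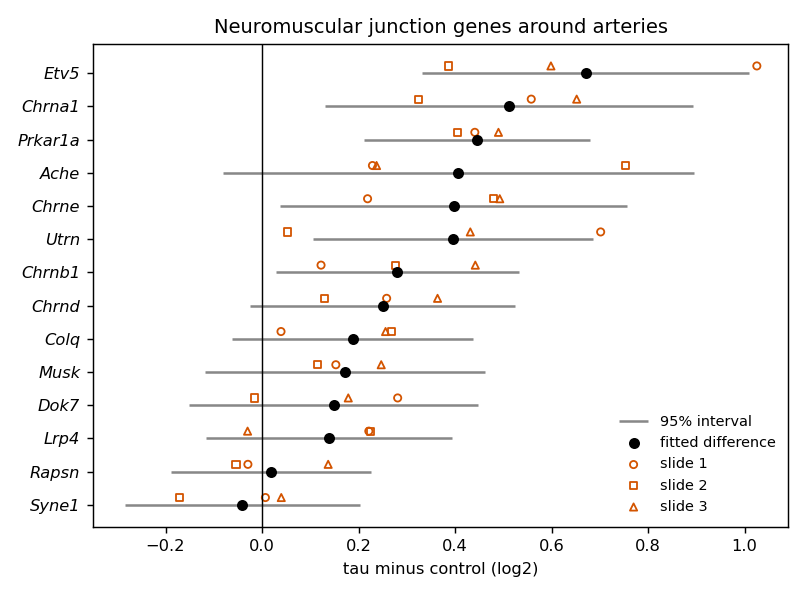
Tau minus control difference around arteries on the log2 scale (horizontal axis) for the 14 tested neuromuscular junction genes (vertical axis). Black points and grey bars give the fitted difference and its 95% interval, and open orange marks give the difference on each slide; Etv5 stands at 0.67 and Syne1 at -0.04, and 13 of 14 fitted values lie above 0.

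In the other region types the list median was 0.17 in normal fibres, 0.46 in nerve bundle and 0.11 in central nuclei, where all genes had 0.06, 0.11 and 0.08; a difference between region types was tested only gene by gene, with no call. With the total count as a further covariate, Chrnd, Chrne, Musk and Rapsn had differences of -0.12, -0.06, -0.11 and -0.24, and Chrna1 and Utrn of 0.18 and 0.055. The summed normalised value of the list was 799 to 1067 in tau animals and 659 to 838 in control animals, and the negative probe value also ran higher in tau animals. Which of these the list median follows was not tested.

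The promoter windows of 3 receptor subunits are printed because the subunits stand together and because ETS factors and myogenic factors are known to act on their promoters. The windows run from 250 bases before to 50 after the start site, 300 bases in all, 5′ to 3′ on the gene's strand, from RefSeq on GRCm38.p6: chr2:73580289-73580588, chr11:69795888-69796187 and chr11:70619145-70619444, each on the minus strand. Capitals mark the ETS core CCGGAA, which reads TTCCGG when on the other strand. They also mark the E box bound by myogenic factors, searched as CAGCTG, and with CAGGTG, which reads CACCTG when on the other strand. No marked stretch overlaps another.
Chrna1: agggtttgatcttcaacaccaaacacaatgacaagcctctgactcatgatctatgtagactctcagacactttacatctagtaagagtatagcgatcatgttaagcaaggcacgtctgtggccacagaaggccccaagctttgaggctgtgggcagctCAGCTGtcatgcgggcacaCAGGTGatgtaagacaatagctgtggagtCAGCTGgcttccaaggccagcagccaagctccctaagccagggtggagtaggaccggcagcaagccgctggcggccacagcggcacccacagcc
Chrnb1: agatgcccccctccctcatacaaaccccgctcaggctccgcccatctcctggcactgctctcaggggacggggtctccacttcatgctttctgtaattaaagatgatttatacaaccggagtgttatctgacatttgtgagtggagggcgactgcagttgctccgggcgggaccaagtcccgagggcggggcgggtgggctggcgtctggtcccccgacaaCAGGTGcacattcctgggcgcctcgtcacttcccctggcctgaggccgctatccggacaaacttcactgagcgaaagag
Chrne: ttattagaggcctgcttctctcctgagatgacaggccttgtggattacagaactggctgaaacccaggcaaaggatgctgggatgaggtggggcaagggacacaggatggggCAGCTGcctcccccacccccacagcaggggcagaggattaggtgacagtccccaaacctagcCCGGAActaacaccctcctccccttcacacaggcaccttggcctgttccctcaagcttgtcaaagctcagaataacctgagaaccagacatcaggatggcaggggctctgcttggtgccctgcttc
The Chrne window holds 1 ETS core and 1 E box, the Chrna1 window 3 E boxes, and the Chrnb1 window 1 E box. Of the 14 genes 10 had a window, and 2 of their 19 windows held the ETS core (10.5%), against 14.9% of 32851 windows in the table and 23.9% of windows of tested genes. An E box was in 9 of 19 (47.4%), against 32.9% of all windows and 29.8% of windows of tested genes. Windows are not independent, since Prkar1a and Syne1 gave several each. By gene, the ETS core was in 2 of 10, against 2252 of 8152 tested genes with a window. An E box was in 7 of 10 genes, against 2721 of 8152. Taf13 held 1 ETS core, and Cdkn1a and Ipo8 none. A match is a run of letters and not a site.

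The denervation-response list shares Chrna1 with the junction list and Cdkn1a and Gadd45a with the list of p53 targets and cell cycle inhibitors. Of 12 denervation-response genes 10 were above 0, with a median of 0.09 around arteries and 0.37 in nerve bundle. The counts and medians of the lists here stand beside 6652 of 10188 genes above 0, with a median of 0.07 around arteries and 0.11 in nerve bundle. Gadd45a, a stress gene of denervated muscle, differed by 0.46 ± 0.151, and by -0.35 with the total count as a covariate. Of 22 p53 targets and cell cycle inhibitors 18 were above 0 with a median of 0.10. Ei24, a p53-induced gene, differed by 0.45 ± 0.143, and by 0.11 with the total count as a covariate. None passed. Of 17 TFIID subunits 12 were above 0, with a median of 0.05, and Taf13 was the highest. Taf3 differed by 0.30 ± 0.110, Taf10 by 0.25 ± 0.110 and Taf11 by -0.27 ± 0.0965. With the total count as a covariate Taf10 was at 0.10. Taf11, which pairs with Taf13 within TFIID, had levels of 5.62, 5.69 and 5.83 in tau animals and 5.86, 5.97 and 6.16 in control animals. There was no overlap, which at most 57 of 10188 genes (0.559%) can show in this direction. Taf11 was chosen after its values were seen and did not pass (limma, adjusted p = 0.265). In normal fibres, nerve bundle and central nuclei it differed by 0.09, 0.07 and -0.25. Among 21 importins and exportins 10 were above 0 with a median of -0.01, and Kpna4 differed by -0.32 ± 0.137. In the FGF, ETS and MAP kinase list, 3 of 13 were above 0.

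The artery wall itself showed no call. Smooth muscle contractile genes had 5 of 14 members above 0 and a median of -0.03. Acta2 had levels of 5.29, 6.21 and 8.11 in tau animals and 5.59, 6.87 and 8.44 in control animals, and its difference of -0.53 ± 0.331 was well within its spread. By slide it was -0.54, 0.06 and -1.11, and without 1 animal at a time it ran from -0.74 to -0.18, with -0.18 without control animal C16. Myh11 and Tagln differed by 0.01 ± 0.147 and -0.09 ± 0.175. Endothelial markers had 11 of 18 above 0, against 6652 of 10188 genes, and a median of 0.03; the 4 with a higher level in tau animals at an unadjusted p under 0.05, where the background is 9.86%, were Kdr, the VEGF receptor (0.39 ± 0.159), Sox17, an arterial transcription factor (0.31 ± 0.130), Tie1 (0.29 ± 0.126) and Robo4 (0.28 ± 0.108), the last in the alphabetical stretch. Pecam1 differed by 0.23 ± 0.128 and Cdh5, the endothelial cadherin, by -0.00 ± 0.127. Hes1, a Notch target, differed by 0.37 ± 0.115, Pde5a, which breaks down cyclic GMP in smooth muscle, by 0.32 ± 0.137, and Col5a1, a fibrillar collagen, by 0.41 ± 0.139. With the total count as a covariate Robo4 was at 0.10, Pecam1 at -0.015, Hes1 at -0.0074, Pde5a at 0.0065 and Col5a1 at -0.12.

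Mapt, the mouse tau gene, had levels of 5.74, 5.99 and 6.38 in tau animals and 5.92, 6.07 and 6.21 in control animals, and differed by -0.03 ± 0.115. Whether its probe can read the P301L transcript is not stated, so it does not check the labels. Of 19 tested genes of tau and its kinases 5 were above 0, with a median of -0.02.

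Among markers of other cell types, the macrophage genes Cd68, Adgre1 and Cd163 stood 0.10, 0.02 and -0.09 from the negative probe on the log2 scale and were not tested. Of 5 other macrophage genes that were tested 2 were above 0, with a median of -0.04, and with -0.58, -0.00 and 0.27 on slides 1, 2 and 3. All 5 tested neutrophil and mast cell genes were above 0 with a median of 0.30; S100a9 differed by 0.54 ± 0.131 and S100a8 by 0.43 ± 0.114, each with a symbol in the stretch from Pr to Sl, and Tpsb2, a mast cell tryptase, by 0.30 ± 0.145. Their summed value was 285 to 571 in tau animals and 225 to 507 in control animals. Of 5 Schwann cell genes 4 were above 0 with a median of 0.22, among them S100b (0.52 ± 0.119) and Prx (0.40 ± 0.125), again in the stretch; their summed value was 318 to 566 in tau and 288 to 524 in control animals. Complement genes had 1 of 9 above 0 and a median of -0.14, with -0.63, 0.15 and 0.12 by slide, and 0.085 without control animal C2. In that list C1ra differed by -0.45 ± 0.238, Cd55 by -0.22 ± 0.147 and C1s1 by 0.22 ± 0.207. T, B and dendritic cell genes had 1 of 4 above 0 and a median of -0.17, with -1.19, 0.16 and 0.61 by slide, and 0.35 without the same control animal. In that list Trac, a T cell receptor gene, differed by -0.14 ± 0.162, Cd74 by -0.36 ± 0.507 and H2-Ab1 by -0.21 ± 0.430, and without that animal the last 2 were at 0.32 and 0.37. With the total count as a covariate Tpsb2 was at -0.32, Prx at -0.00057, C1ra at 0.72, Cd55 at 0.10, Trac at 0.34, Cd74 at 0.50 and H2-Ab1 at 0.83.

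Genes of the fibres themselves differed in both directions. Fast fibre contractile genes had 8 of 21 above 0 and a median of -0.09, with Myl1 at 0.75 and Ryr1, the calcium release channel, at -0.32 ± 0.143. With the total count as a covariate Ryr1 was at -0.13. Glycolysis genes had 6 of 18 above 0 and a median of -0.10, although Gapdh differed by 0.49 ± 0.194. Oxidative phosphorylation genes had 16 of 37 above 0, with a median of -0.08 around arteries, 0.12 in normal fibres and -0.30 in nerve bundle; by slide it was 0.20, -0.02 and -0.35 around arteries, and without tau animal T14 it was 0.048. Cox8b, a muscle subunit of cytochrome c oxidase, differed by 0.47 ± 0.173, and by 0.038 with the total count as a covariate. Among oxidative stress genes Gpx3, a secreted glutathione peroxidase, had levels of 7.02, 8.19 and 8.48 in tau animals and 6.74, 7.04 and 8.31 in control animals. Gpx3 differed by 0.65 ± 0.20, and by 0.25 with the total count as a covariate. Prdx6, with a symbol in the stretch from Pr to Sl, differed by 0.42 ± 0.117, Sod1 by -0.25 ± 0.105 and Cat by -0.38 ± 0.167.

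Circadian clock genes had 4 of 17 above 0 and a median of -0.11, against -0.20, -0.08 and -0.13 in normal fibres, nerve bundle and central nuclei. Per1, a repressor of the clock, differed by -0.48 ± 0.164 and Nr1d2, a nuclear receptor of the clock, by -0.43 ± 0.135. Immediate early genes had 5 of 17 above 0; Dusp1, a phosphatase of MAP kinases, differed by -0.52 ± 0.122 and Jun by -0.38 ± 0.154. Among hypoxia genes Egln3, an oxygen sensor, differed by 0.51 ± 0.197 and Hif1a by -0.35 ± 0.135. With the total count as a covariate Jun, Egln3 and Hif1a were at 0.045, -0.53 and 0.20. None of these passed.

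**Figure D4:**
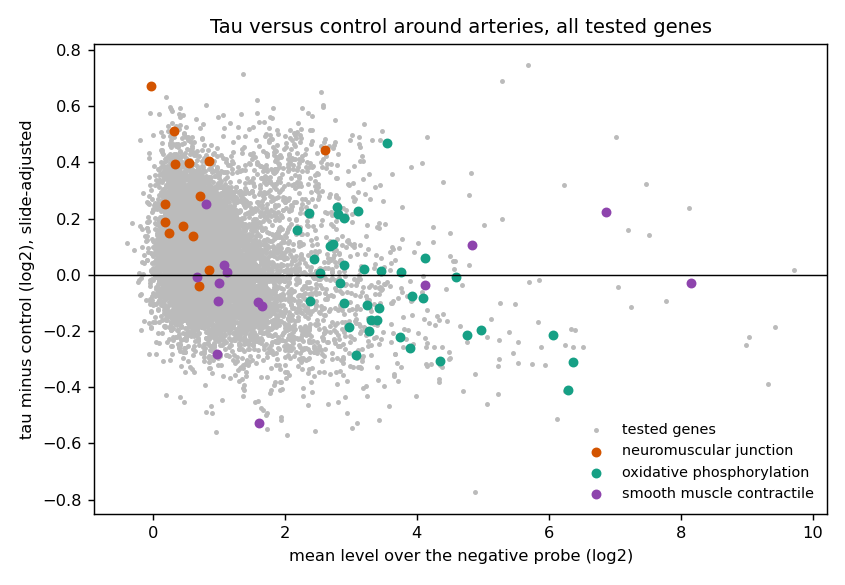
Tau minus control difference around arteries on the log2 scale (vertical axis) against the mean level over the negative probe (horizontal axis, log2) for 10188 tested genes in grey. Junction genes (orange) lie near the negative probe and mostly above 0, with a median of 0.27; oxidative phosphorylation (green) and smooth muscle contractile genes (purple) have medians of -0.08 and -0.03.

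**Figure D5:**
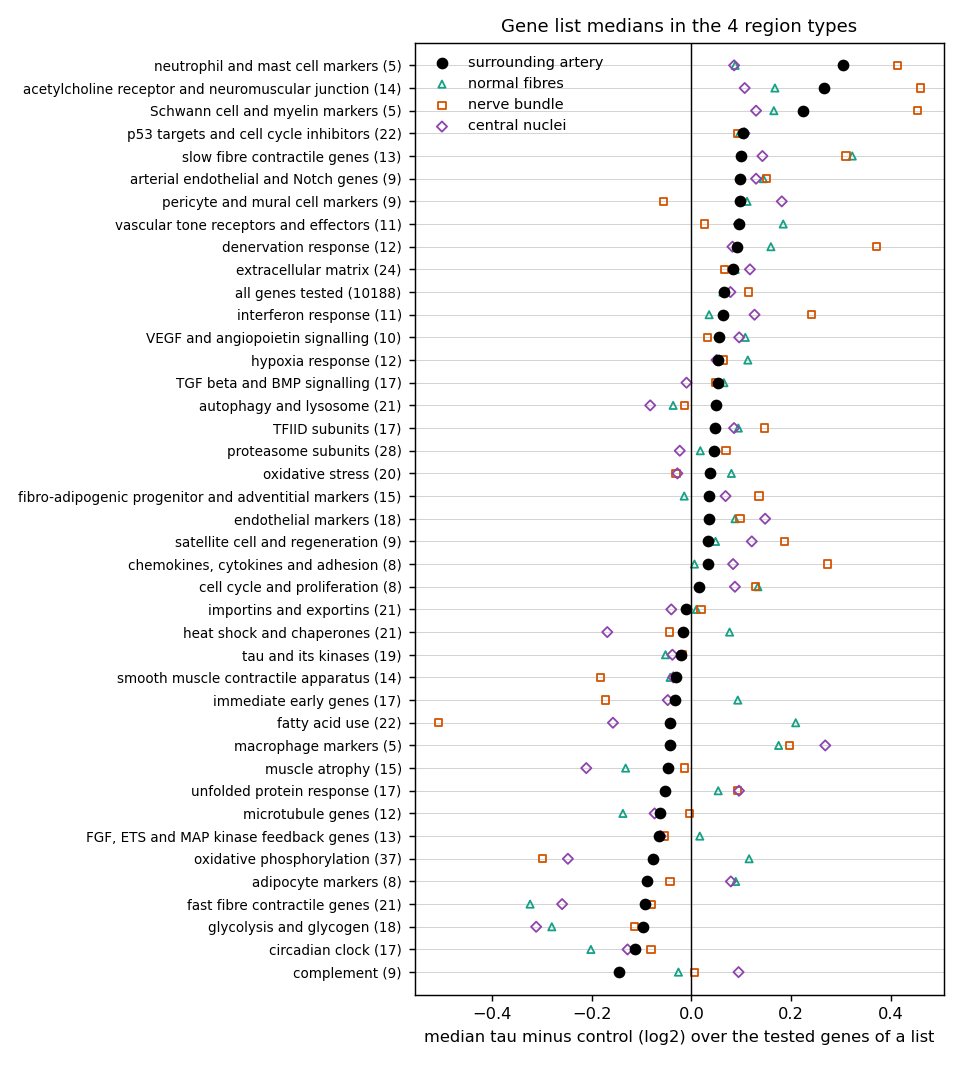
Median tau minus control difference (horizontal axis, log2) over the tested genes of each list, with the number tested in brackets, around arteries (black) and in normal fibres, nerve bundle and central nuclei (open marks); lists with at least 5 tested genes are drawn. Junction genes stand at 0.27 around arteries and 0.46 in nerve bundle.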

How the data were processed

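The authors deposited one table of signal values: probe counts of 10842 genes normalised to the third quartile of each region, on a linear scale with 1 negative probe row, per the file headers. The genome build is mm10 per the submitters' processing notes; no source used here names the aligner or the counting software. Low values are whole multiples of 1 step in each region (within 0.02 of a step for at least 99.97% of values), which gave whole counts and depths.

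Genes entered the tests if they reached 1.5 times the negative probe in 10% or more of the 80 regions (10188 kept, 654 left out). Log2 of the value plus a pseudocount of 1 was averaged over the artery regions of each animal and fitted with slide as a covariate in limma 3.58.1 (R 4.3.3; empirical Bayes moderation with a mean trend; p-values adjusted after Benjamini and Hochberg, threshold 0.05). The same fit was used in other region types, and for within-animal differences between types. Animals are the replicates named in the labels. Fits were checked on simulated data. Alternatives were run with edgeR 4.0.16 on recovered counts and with other settings, described at the end. Intervals do not cover selection of regions, whose outlining is not stated.

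Named genes are the 4 listed with the comparison, the 12 with the smallest p, 6 fixed markers, up to 3 genes of lists whose median lay over 0.2 from that of all genes, and 3 from each test of a difference; other genes were chosen after their values were seen. The members and the 44 gene lists were chosen with earlier results of these data known. Labelled sex was used only as an alternative covariate, since Y-linked Eif2s3y was 2.92 to 6.46 in labelled female and 5.33 to 5.92 in labelled male tau animals, and 5.23 to 6.64 in labelled female and 3.60 to 4.59 in labelled male controls. Positions and promoters are from RefSeq on GRCm38.p6 (10164 tested symbols found). Figures were drawn with matplotlib 3.10.9.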

Additional observations from a re-analysis of the deposited data

Results flagged for a closer look

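In 6 of 172 sets of 6 animals (1 gene or depth measure in 1 group) 1 animal stood far from the other 5. Chance gives this in about 1 of 20 sets, which comes to 8.6 here. Hes1 was 6.12 in tau animal T13, where the other tau animals ran from 5.72 to 5.86. Taf3 was 5.85 in tau animal T7, below the 6.14 to 6.30 of the others, and C1s1 was 4.99 in T13, below 5.48 to 5.66. Control animal C2 had Cd74 at 9.78 against 5.76 to 6.397 in the other controls, and H2-Ab1 at 8.85 against 5.42 to 5.89; both encode parts of antigen presentation by MHC class II. Control animal C16 had Myh11 at 7.02 against 5.88 to 6.24. All levels are log2 values around arteries.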

How the results depend on the processing

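The count of genes called stayed at 0 under 27 of 28 alternatives, 2 of them chosen after the data were seen, and the lowest adjusted p ran from 0.0137 to 0.99997. With single regions and an animal random effect (1 correlation of 0.224 shared by all genes) limma called 54 genes higher and 8 lower. Taf13, Cdkn1a and Myl1 were among the higher and Mylk4 and Chd4 among the lower. From Pr to Sl lie 45 of these 62 symbols. The cause was not tested. The total count covariate gave 42 genes higher at an unadjusted p under 0.05 (edgeR 432, no slide covariate 231, slide alone 1005). No paired analysis was possible because each animal has 1 treatment and the labels' numbers do not pair animals; slide is already in the fit.

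Signs turned for some named genes, most often with the total count: Pecam1 -0.015, Tpsb2 -0.32, Trac 0.34, Cd74 0.50, H2-Ab1 0.83, C1ra 0.72, Cd55 0.10, Tmem19 0.028, Zkscan5 0.18, Chrnd -0.12, Chrne -0.059, Musk -0.11, Rapsn -0.24, Mylk4 0.29, Prx -0.00057, Gadd45a -0.35, Hes1 -0.0074, Jun 0.045, Col5a1 -0.12, Egln3 -0.53 and Hif1a 0.20. With the negative probe as covariate: Cdh5 0.14, Cd74 0.49, H2-Ab1 0.54 and Syne1 0.032; with it subtracted: Myh11 -0.020, C1s1 -0.056 and Rapsn -0.35. With edgeR: Myh11 -0.081, Myl2 0.017 and Rapsn -0.036; quantile scaling: Cdh5 0.015, Dok7 -0.022 and Rapsn -0.021; random effect: Myh11 -0.00075 and Cdh5 0.032; first region: Zkscan5 0.12 and Musk -0.097; labelled sex: Myh11 -0.028. Leaving out 1 animal gave Cd74 -0.68 to 0.32, Cdh5 -0.087 to 0.094, H2-Ab1 -0.49 to 0.37, Mapt -0.11 to 0.046, Myh11 -0.057 to 0.17, Myl2 -0.29 to 0.029, Rapsn -0.012 to 0.063, Syne1 -0.13 to 0.025, Tagln -0.23 to 0.046 and Trac -0.22 to 0.013, and 0 to 0 genes called in each comparison. Of 1193 list medians 72 moved past the spread between animals, 23 of them with the negative probe subtracted. The part of depth in the values of genes near the negative probe was not tested.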
